A study of Mus musculus with 9 samples.

Results

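The loss of miR-92a-1 from a miR-17~92 cluster that already lacked miR-17 and miR-18 was read from a pair of small RNA libraries of mouse embryos, 2 of the 9 libraries of an allelic series. The 19-only library came from embryos with miR-17, miR-18 and miR-92 deleted, in which miR-19 is the only family of the cluster kept. The ΔmiR-17,18 library came from embryos with miR-17 and miR-18 deleted, in which miR-19 and miR-92 are kept. Both therefore carry the miR-17,18 deletion and, by their labels, differ in miR-92 alone. The same loss on an intact cluster was read from the ΔmiR-92 library, with miR-92 deleted, set against the wild-type library, and the 2 comparisons share no library. All embryos were at embryonic day 9.5, the libraries were labelled female, and RNA came from what remained of the embryo once its heart and tail bud had been taken off. The labels give neither zygosity nor strain nor the number of embryos behind a library. Every mature miRNA of the table was followed in these 4 libraries.

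The miR-17~92 cluster is transcribed as 1 host RNA, from which several hairpins are cut. Each hairpin gives a 5p and a 3p arm, of which the more stable one, the guide, directs a silencing complex to messenger RNAs that pair with its seed, the bases 2 to 8. miRNAs with the same seed are expected to share targets, so the deletion of a locus takes away only part of a seed family when paralogs remain. miR-92a is made from 2 loci, Mir92-1 in miR-17~92 and Mir92-2 in the X-linked cluster of miR-106a and miR-363. It shares its seed with miR-25, miR-32, miR-92b, miR-363 and miR-367, and is known for its roles in endothelial cells and in skeletal development.

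The mature sequences of the family are shown because they define what a deletion of Mir92-1 leaves behind. They are RefSeq sequences (GRCm38.p6), 5′ to 3′, with the seed in capitals.
miR-92a-3p: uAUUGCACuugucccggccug
miR-25-3p: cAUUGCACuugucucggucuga
miR-92b-3p: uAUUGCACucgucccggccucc
miR-363-3p: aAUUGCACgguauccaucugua
miR-32-5p: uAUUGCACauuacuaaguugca
miR-367-3p: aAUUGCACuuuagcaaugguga
The hairpins of the deleted locus and of its X-linked copy follow, with mature miR-92a-3p in capitals. Mir92-1 lies at chr14:115044427-115044506 on the plus strand and Mir92-2 at chrX:52741838-52741928 on the minus strand of GRCm38.p6.
Mir92-1: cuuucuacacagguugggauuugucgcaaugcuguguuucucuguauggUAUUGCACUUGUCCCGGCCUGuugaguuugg
Mir92-2: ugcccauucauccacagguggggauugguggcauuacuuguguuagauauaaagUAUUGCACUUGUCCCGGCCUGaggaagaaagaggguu
The longest stretch common to both hairpins was 22 bases and holds the whole mature miR-92a-3p, so the mature sequence alone does not tell the loci apart. The 5p arms differ, and miR-92a-1-5p can be assigned to the deleted locus.

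Reads on mature miRNAs numbered 12335940 in 19-only, 9263997 in ΔmiR-17,18, 6563686 in ΔmiR-92 and 7068183 in wild type. Levels are given as nRPM, the deposited normalised reads rescaled alike in all libraries to the size of reads per 1e6, and 1 read was worth 0.0693 nRPM in 19-only, 0.115 in ΔmiR-17,18, 0.143 in ΔmiR-92 and 0.157 in wild type. Each genotype had 1 library, so a ratio compares 2 libraries and has no replicate check. The 95% intervals of ratios (exact conditional, Clopper-Pearson) cover counting error only, and reads without molecular identifiers are not independent molecules. Among the miRNAs counted below, the bounds of an interval lay within a factor of 1.18 of its middle (geometric), with a median factor of 1.04.

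miR-92a-1-5p, the arm that belongs to the deleted locus alone, stood at 1.25 nRPM in 19-only (18 reads), against 502.0 nRPM in ΔmiR-17,18 (4382 reads). That was 0.249% of the ΔmiR-17,18 level (95% interval 0.147 to 0.393). On the intact background it had 0 reads in ΔmiR-92, against 9208 reads and 1443 nRPM in wild type, where 3 reads would equal 0.0298%. Both libraries labelled as lacking miR-92 were thus nearly free of this arm.

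miR-92a-3p was listed under 1 accession in 2 rows of different height. The sources used here neither tie a row to a locus nor say how reads were divided between the rows. The higher row stood at 546 nRPM in 19-only, against 60337 nRPM in ΔmiR-17,18, or 0.905% of the ΔmiR-17,18 level (95% interval 0.885 to 0.925). It stood at 871.9 nRPM in ΔmiR-92, against 199618 nRPM in wild type, or 0.437% (0.426 to 0.448). These values were the ground for assigning the row to the cluster, so they are no separate check of the genotype. The lower row stood at 8494 nRPM in 19-only, against 10975 nRPM in ΔmiR-17,18, a log2 ratio of -0.37. It stood at 14314 nRPM in ΔmiR-92, against 22961 nRPM in wild type, a log2 ratio of -0.68.

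The starting level of miR-92a-3p differed between the backgrounds. With miR-92 present, the higher row took 5.69% of all reads in ΔmiR-17,18 and 18.0% in wild type. With miR-92 deleted it took 0.0639% in 19-only and 0.0928% in ΔmiR-92. Summed over both rows, miR-92a-3p stood at 9040 nRPM in 19-only, against 71312 nRPM in ΔmiR-17,18 (12.7%), and at 15186 nRPM in ΔmiR-92, against 222579 nRPM in wild type (6.82%).

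**Figure D1:**
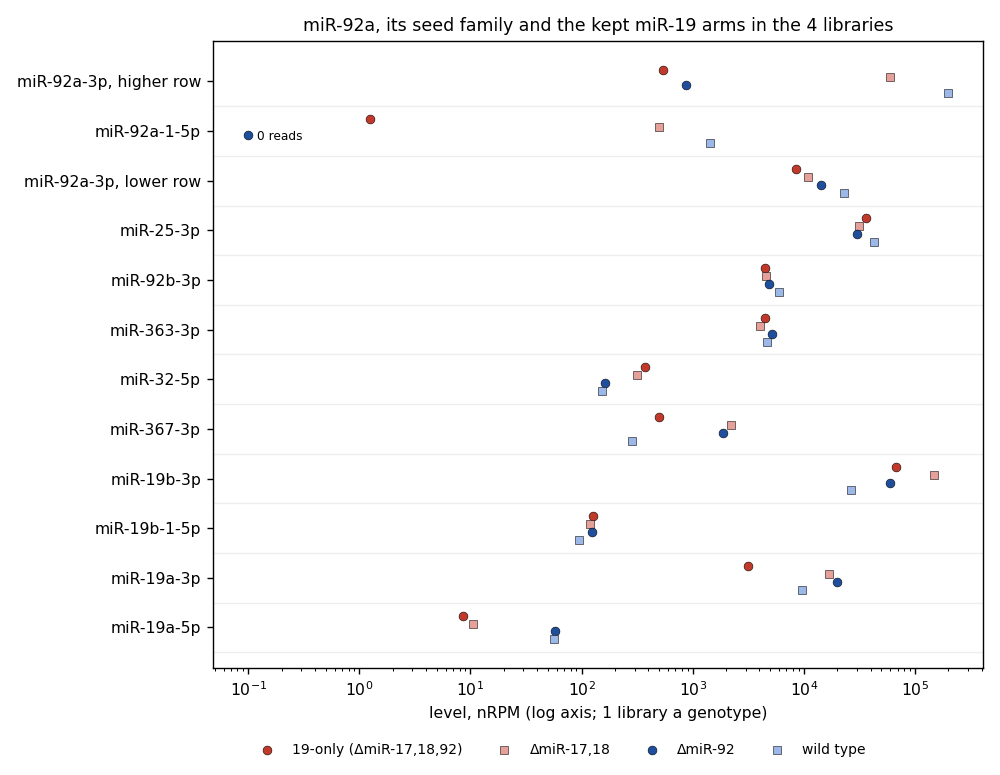
Levels in nRPM (log axis) of miR-92a, its seed family and the kept miR-19 arms in the 19-only, ΔmiR-17,18, ΔmiR-92 and wild-type libraries, 1 point a library. The higher row of miR-92a-3p and miR-92a-1-5p lie far to the left in both libraries with miR-92 deleted (0 reads drawn at the left edge), while miR-25-3p, miR-92b-3p, miR-363-3p and miR-32-5p differ by less than 2-fold within each comparison.

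Most other members of the seed family stood at similar levels with and without miR-92a-1 on the miR-17,18 deleted background. miR-25-3p, made from the miR-106b~25 cluster and the most abundant of them, stood at 36747 nRPM in 19-only and 31699 nRPM in ΔmiR-17,18, a ratio of 1.16 (95% interval 1.15 to 1.16). miR-92b-3p stood at 4470 nRPM in 19-only and 4554 nRPM in ΔmiR-17,18, and miR-363-3p at 4439 nRPM in 19-only and 4040 nRPM in ΔmiR-17,18. These ratios were 0.981 for miR-92b-3p and 1.10 for miR-363-3p. miR-32-5p, the least abundant, stood at 372 nRPM in 19-only and 313 nRPM in ΔmiR-17,18, a ratio of 1.19. On the intact background miR-25-3p was lower, at 30165 nRPM in ΔmiR-92, against 42576 nRPM in wild type, a ratio of 0.708 (0.704 to 0.713). The ratios there were 0.813 for miR-92b-3p, 1.10 for miR-363-3p and 1.07 for miR-32-5p.

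miR-367-3p, made from a hairpin next to those of miR-302, which mark pluripotent cells, was the family member past 2-fold. It stood at 500.2 nRPM in 19-only, against 2211 nRPM in ΔmiR-17,18, a ratio of 0.226 (95% interval 0.220 to 0.232). On the intact background it lay the other way, at 1892 nRPM in ΔmiR-92, against 285 nRPM in wild type, a ratio of 6.63 (6.31 to 6.97). Its 4 levels thus placed 19-only near wild type and ΔmiR-17,18 near ΔmiR-92.

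The summed seed family stood at 55568 nRPM in 19-only, against 114130 nRPM in ΔmiR-17,18, or 48.7% of the ΔmiR-17,18 level. On the intact background it stood at 57445 nRPM in ΔmiR-92, against 276272 nRPM in wild type, or 20.8%. The 2 libraries without miR-92 therefore held nearly equal family totals, and the libraries with miR-92 did not. As a share of all reads, the family took 6.50% in 19-only, 10.8% in ΔmiR-17,18, 6.11% in ΔmiR-92 and 24.9% in wild type. The ratios of family sums given here thus rest on the deposited scaling. Without the higher miR-92a-3p row the family summed to 55022 nRPM in 19-only and 53793 nRPM in ΔmiR-17,18 (102%), and to 56573 nRPM in ΔmiR-92 and 76654 nRPM in wild type (73.8%). miR-25-3p made up 66.1% of the family in 19-only, 27.8% in ΔmiR-17,18, 52.5% in ΔmiR-92 and 15.4% in wild type.

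**Figure D2:**
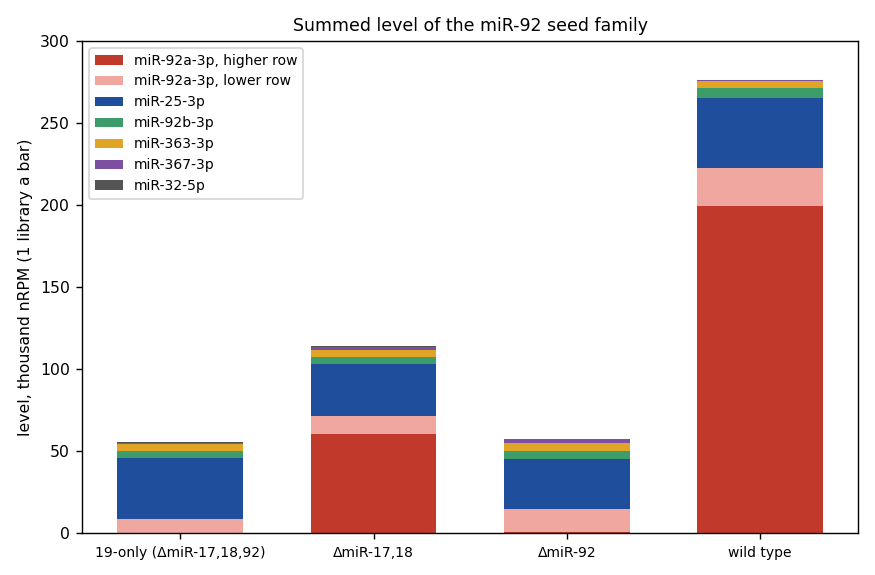
Summed level of the miR-92 seed family (axis in units of 1000 nRPM), 1 library a bar, stacked by member, for 19-only, ΔmiR-17,18, ΔmiR-92 and wild type. The totals of 19-only (55568 nRPM) and ΔmiR-92 (57445 nRPM) are nearly equal, and the red segment of the higher miR-92a-3p row makes up 52.9% of the bar in ΔmiR-17,18 and 72.3% in wild type.

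The miR-19 arms were kept in all 4 genotypes. Their guides were lower in 19-only and higher in ΔmiR-92, each against its own comparison library. miR-19a and miR-19b, which are the main oncogenic members of the cluster in mouse B-cell lymphoma, differ at 1 base outside the seed.
miR-19a-3p: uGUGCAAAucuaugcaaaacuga
miR-19b-3p: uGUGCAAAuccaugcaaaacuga
miR-19b-3p stood at 67241 nRPM in 19-only, against 148046 nRPM in ΔmiR-17,18, a ratio of 0.454 (95% interval 0.453 to 0.455). In ΔmiR-92 it stood at 59414 nRPM, against 26904 nRPM in wild type, a ratio of 2.21 (2.2 to 2.22). With plain read totals its log2 ratio was -0.83 in 19-only over ΔmiR-17,18, under 2-fold, and 1.38 in ΔmiR-92 over wild type. miR-19b-3p is also made from the X-linked Mir19b-2, so its level is not that of the cluster alone. It stood at 1541 nRPM in the library with miR-19 deleted and at 2853 nRPM in that with the whole cluster deleted. miR-19a-3p, made from the cluster only, stood at 3158 nRPM in 19-only, against 16810 nRPM in ΔmiR-17,18, a ratio of 0.188 (0.186 to 0.190). It stood at 20149 nRPM in ΔmiR-92, against 9625 nRPM in wild type, a ratio of 2.09 (2.07 to 2.11).

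The partner arms of the same hairpins differed less. miR-19b-1-5p stood at 127 nRPM in 19-only and 120 nRPM in ΔmiR-17,18, and at 124 nRPM in ΔmiR-92 and 95.4 nRPM in wild type, so its log2 ratios were 0.08 and 0.38. miR-19a-5p stood at 8.66 nRPM in 19-only and 10.7 nRPM in ΔmiR-17,18, a ratio of 0.813 (95% interval 0.617 to 1.07). It stood at 57.8 nRPM in ΔmiR-92 and 56.4 nRPM in wild type. The guides and partners of the kept hairpins thus did not share a ratio in either comparison.

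The arms deleted in both libraries of the first comparison were not equally low. miR-17-5p stood at 8.87 nRPM in 19-only (128 reads), against 180.1 nRPM in ΔmiR-17,18 (1572 reads). miR-20a-5p stood at 8.66 nRPM in 19-only and 187 nRPM in ΔmiR-17,18, and miR-18a-5p at 4.30 nRPM in 19-only and 72.6 nRPM in ΔmiR-17,18. All 3 guides therefore left more reads in ΔmiR-17,18, with log2 ratios of -4.20, -4.28 and -3.80, although both labels name miR-17 and miR-18 as deleted. The labels do not name miR-20a, which shares the miR-17 seed and was taken here as deleted with it. The source of the reads left on these 3 guides was not tested. On the intact background, where these arms are kept, miR-17-5p stood at 53740 nRPM in ΔmiR-92, against 17337 nRPM in wild type (log2 ratio 1.63). miR-20a-5p stood at 15285 nRPM in ΔmiR-92, against 31084 nRPM in wild type (-1.02), and miR-18a-5p at 10583 nRPM in ΔmiR-92, against 10103 nRPM in wild type (0.07).

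Summed by seed over the cluster and its paralogs, the families other than miR-92 also differed between the libraries. The miR-17 seed (6 miRNAs, mostly miR-93-5p and miR-106b-5p where miR-17 is deleted) summed to 71858 nRPM in 19-only and 104247 nRPM in ΔmiR-17,18, a ratio of 0.689. The miR-18 seed summed to 4420 nRPM in 19-only and 2091 nRPM in ΔmiR-17,18, a ratio of 2.11, and nearly all of it was miR-18b-5p from the X chromosome. The miR-19 seed summed to 70400 nRPM in 19-only and 164856 nRPM in ΔmiR-17,18, a ratio of 0.427.

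Outside the cluster, 317 miRNAs averaged 100 nRPM or more over the 4 libraries and were counted. Of these, 27 (8.52%) stood 2-fold or more higher in 19-only than in ΔmiR-17,18, and 13 (4.10%) stood 2-fold or more lower, together 40 (12.6%). The median log2 ratio was 0.03, with quartiles of -0.34 and 0.45. In ΔmiR-92 over wild type, 25 (7.89%) stood higher and 22 (6.94%) lower, together 47 (14.8%), with a median log2 ratio of 0.01 and quartiles of -0.45 and 0.42. Some of the 317 share all their reads with another name, so some reads are counted more than once. Others have nearly the level of another name. miR-299-3p and miR-299b-5p, both past 2-fold higher in 19-only, averaged 1914.4 and 1914.7 nRPM. With plain read totals in place of the deposited scaling, the median log2 ratios were 0.35 and 0.24, and the counts became 56 higher and 6 lower in 19-only, and 42 higher and 18 lower in ΔmiR-92.

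The 5 miRNAs with the highest ratios in 19-only over ΔmiR-17,18 were miR-1197-3p, miR-199a-5p, miR-181c-5p, miR-199b-5p and miR-485-5p. Some are shown with their seeds in capitals, because miR-181c has relatives with the same seed and miR-1197 and miR-199a led the order.
miR-1197-3p: uAGGACACauggucuacuucu
miR-199a-5p: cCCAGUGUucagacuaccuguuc
miR-181a-5p: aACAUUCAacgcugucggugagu
miR-181c-5p: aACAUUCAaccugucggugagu
miR-1197-3p, from the imprinted Dlk1-Dio3 region (chr12:109712396-109712416, plus strand), stood at 1910.3 nRPM in 19-only, against 162 nRPM in ΔmiR-17,18, a ratio of 11.8 (95% interval 11.2 to 12.4). It stood at 181 nRPM in ΔmiR-92 and 215 nRPM in wild type. The highest of the other genotype libraries was 401 nRPM, so that 19-only stood alone. Its neighbour miR-323-3p, whose hairpin starts 191 bases away, stood at 1930.1 nRPM in 19-only and 895 nRPM in ΔmiR-17,18, and the partner arm miR-1197-5p had a log2 ratio of -0.60.

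miR-199a-5p, an abundant miRNA of mesenchyme, stood at 6520 nRPM in 19-only, against 926 nRPM in ΔmiR-17,18, a ratio of 7.04 (95% interval 6.88 to 7.20). Its paralog miR-199b-5p stood at 255 nRPM in 19-only, against 75.9 nRPM in ΔmiR-17,18 (ratio 3.36, 3.10 to 3.66). The other arm, miR-199a-3p, had a log2 ratio of 0.62. miR-214-5p, whose hairpin starts 5554 bases from Mir199a-2 and which averaged 98.2 nRPM, just under the minimum, had a log2 ratio of 2.18, and its partner miR-214-3p one of -0.01. miR-199a-5p is also made from Mir199a-1 on chromosome 9, so its reads cannot be assigned to the locus next to Mir214. The 5p arms named here thus stood higher in 19-only while the 3p arms differed by less than 2-fold.

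In the miR-181 group, whose members act in lymphocyte and vascular development, miR-181c-5p stood at 4154 nRPM in 19-only, against 1167 nRPM in ΔmiR-17,18 (ratio 3.56, 95% interval 3.49 to 3.64). miR-181a-5p stood at 12702 nRPM in 19-only, against 4606 nRPM in ΔmiR-17,18 (ratio 2.76, 2.73 to 2.79). miR-181b-5p and miR-181d-5p, with the same seed, had log2 ratios of 0.69 and 0.12. The 4 members were thus all higher in 19-only, 2 of them past 2-fold. On the intact background their log2 ratios were -0.60, -0.45, -0.15 and 0.29 for miR-181c, miR-181a, miR-181b and miR-181d.

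miR-485-5p, also from Dlk1-Dio3, stood at 227 nRPM in 19-only, against 72.3 nRPM in ΔmiR-17,18 (ratio 3.14, 95% interval 2.88 to 3.42). At the other end, miR-744-5p stood at 2100.0 nRPM in 19-only, against 8992 nRPM in ΔmiR-17,18, a ratio of 0.234 (0.230 to 0.237). miR-148b-3p stood at 1900 nRPM in 19-only, against 7522 nRPM in ΔmiR-17,18, a ratio of 0.253 (0.249 to 0.256). For both, 19-only lay below the other 3 libraries, since ΔmiR-92 and wild type held 9184 and 7388 nRPM of miR-744-5p and 7116 and 6772 nRPM of miR-148b-3p. miR-708-5p stood at 349 nRPM in 19-only, against 1201 nRPM in ΔmiR-17,18 (ratio 0.291), and miR-151-5p at 1742 nRPM in 19-only, against 4772 nRPM in ΔmiR-17,18 (ratio 0.365). Both again were lower in 19-only than in ΔmiR-92 and wild type.

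miR-126, which is made from an intron of Egfl7 in endothelial cells, was lower in 19-only in both arms. miR-126-3p stood at 6055 nRPM in 19-only, against 14906 nRPM in ΔmiR-17,18 (ratio 0.406, 95% interval 0.403 to 0.410), and at 8396 nRPM in ΔmiR-92 and 8050 nRPM in wild type. miR-126-5p stood at 1318 nRPM in 19-only, against 2658 nRPM in ΔmiR-17,18 (ratio 0.496), and at 4765 nRPM in ΔmiR-92 and 2674 nRPM in wild type. The 19-only library was the lowest of the 8 genotype libraries for both arms. For miR-126-3p, but not for miR-126-5p, ΔmiR-17,18 was also the highest of the 8, whose median was 8829 nRPM for miR-126-3p. With plain read totals the log2 ratios were -0.99 for miR-126-3p and -0.70 for miR-126-5p, and miR-126-5p was also under 2-fold with totals outside the cluster (-0.92) and with TMM factors (-0.93). In bulk tissue, fewer cells of a type and less of a miRNA per cell cannot be told apart.

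Grouped by lists, the miRNAs past 2-fold in 19-only over ΔmiR-17,18 were few in most groups and are read against the 8.52% higher and 4.10% lower of all counted. Of the 42 counted miRNAs on the list of the imprinted Dlk1-Dio3 region, whose genes act in placental and fetal growth, 6 stood higher and 1 lower, with a median log2 ratio of 0.30. The 6 were miR-136-3p, miR-299-3p, miR-323-3p, miR-376a-3p, miR-485-5p and miR-494-3p, with log2 ratios between 1.11 and 1.64, and the lower one was miR-370-3p (-1.24). All matched names of the list summed to 138850 nRPM in 19-only and 123794 nRPM in ΔmiR-17,18, the lowest of the 8 genotype libraries. They summed to 146834 nRPM in ΔmiR-92 and 151604 nRPM in wild type. The list does not hold every miRNA of the region, and miR-1197-3p (3.55) and miR-3071-5p (1.15), which shares its reads with miR-136-3p, were not on it. Of 6 counted members of the X-linked paralog cluster, miR-18b-5p stood higher, and of 5 of miR-106b~25, miR-106b-5p stood lower (-1.09). None of 6 let-7 guides, which mark differentiated tissue, passed 2-fold in either comparison, and none of 4 Hox-embedded miRNAs of the miR-10 and miR-196 group did so in 19-only over ΔmiR-17,18. miR-10b-5p and miR-10a-5p, the most abundant of that group, summed with miR-196 to 54824 nRPM in 19-only and 64171 nRPM in ΔmiR-17,18. None of 6 counted members of the X-linked miR-322 cluster passed 2-fold there either, and of 6 members of the miR-302 and miR-367 list miR-367-3p stood lower.

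On the intact background the same lists gave other counts, read against 7.89% higher and 6.94% lower. Of the 42 miRNAs on the Dlk1-Dio3 list, 4 stood higher and 3 lower in ΔmiR-92 than in wild type. In the Hox group, miR-196a-5p and miR-196b-5p stood lower, with log2 ratios of -1.91 and -1.60, where 19-only over ΔmiR-17,18 had 0.56 and 0.33. In the miR-322 cluster, miR-450a-5p stood lower at 141 nRPM in ΔmiR-92, against 1724 nRPM in wild type, and miR-351-5p had a log2 ratio of -1.09. miR-450a-5p stood at 233 nRPM in both 19-only and ΔmiR-17,18, so that wild type held the most of it among the 4 libraries.

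Among marker miRNAs of blood, epithelium, neural tissue and mesenchyme, 1 of each list passed 2-fold. Of 6 counted blood miRNAs, miR-142-5p stood lower in 19-only (235 against 501 nRPM in ΔmiR-17,18), and erythroid miR-451 stood at 249 nRPM in 19-only and 290 nRPM in ΔmiR-17,18. The blood list as a whole (10 of 10 names found) summed to 2152 nRPM in 19-only, 2788 in ΔmiR-17,18, 2768 in ΔmiR-92 and 3542 in wild type. Of 5 miR-200 family members, which mark epithelium, miR-429-3p stood higher (1146 nRPM in 19-only, against 439 nRPM in ΔmiR-17,18), while miR-200c-3p had a log2 ratio of -0.84. Of 6 neural miRNAs, miR-9-5p stood higher, and of 8 mesenchyme miRNAs, miR-199a-5p did, while miR-140-5p had a log2 ratio of -0.50. The part of cell composition in these ratios was not tested.

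Although the heart had been removed, some heart miRNAs were present, in amounts that differed between the libraries. miR-208a-3p, made from an intron of the cardiac myosin gene Myh6, stood at 159 nRPM in 19-only, 176 in ΔmiR-17,18, 51.7 in ΔmiR-92 and 6.27 in wild type. miR-499-5p stood at 43.9 nRPM in 19-only, 60.4 in ΔmiR-17,18, 31.8 in ΔmiR-92 and 10.3 in wild type. miR-1a-3p stood at 3663 nRPM in 19-only, 5005 in ΔmiR-17,18, 4624 in ΔmiR-92 and 2486 in wild type. miR-133b-3p stood at 28.7 nRPM in 19-only, 18.4 in ΔmiR-17,18, 13.6 in ΔmiR-92 and 5.64 in wild type. Both were thus also lowest in wild type, while the others on the list were not. miR-208b-3p stood at 22.5 nRPM in 19-only, 20.5 in ΔmiR-17,18, 16.0 in ΔmiR-92 and 24.6 in wild type, and miR-133a-3p had log2 ratios of -0.31 and -0.15. miR-206-3p, a miRNA of skeletal muscle, stood higher in 19-only (205 nRPM) than in ΔmiR-17,18 (96.6 nRPM). The whole list of 8 heart and skeletal muscle miRNAs summed to 4826 nRPM in 19-only and 6171 nRPM in ΔmiR-17,18, and to 5286 nRPM in ΔmiR-92 and 3150 nRPM in wild type. Both libraries of the first comparison thus held similar miR-208a-3p, while ΔmiR-92 held 8.25 times the wild-type level (95% interval 5.94 to 11.7). Its part in the other ratios of that comparison was not tested.

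Set beside the intact background, few miRNAs stood past 2-fold on the same side in both comparisons. Of the 317, 2 (0.631%) stood 2-fold or more higher in both comparisons and 0 (0%) stood 2-fold or more lower in both. Those past 2-fold in both comparisons, in any direction, numbered 10, which is 25% of the 40 of the first comparison and 21.3% of the 47 of the second. The other 8 stood on opposite sides, 6 (1.89%) higher in 19-only and lower in ΔmiR-92, and 2 (0.631%) lower in 19-only and higher in ΔmiR-92. Counting any size, 119 of 317 (37.5%) had the same sign in both. Across the 317 miRNAs, which share the 4 libraries and are not independent replicates, the log2 ratios had a Pearson r of -0.39 and a Spearman rho of -0.42.

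**Figure D3:**
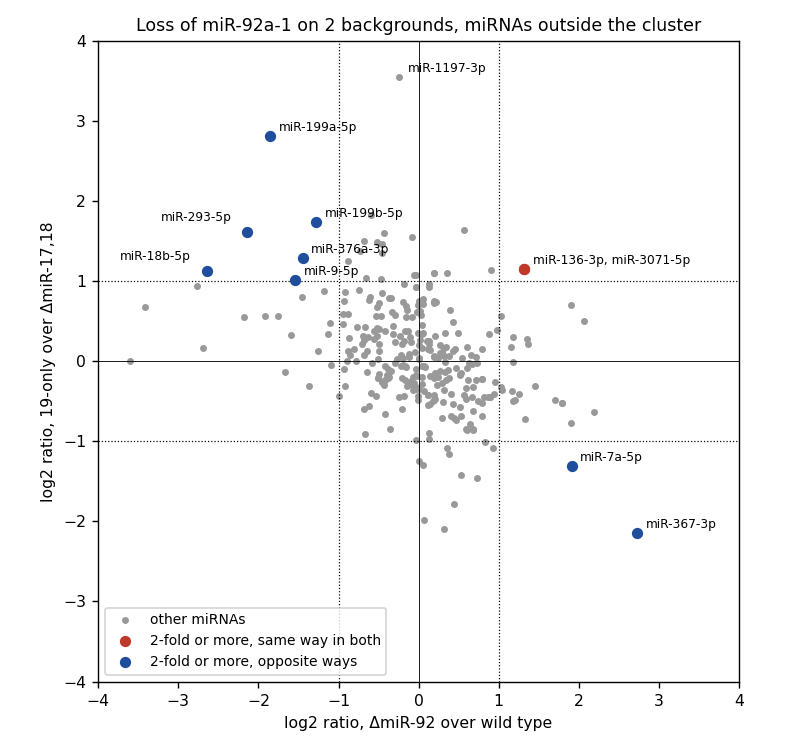
Log2 ratio of 19-only over ΔmiR-17,18 (vertical axis) against that of ΔmiR-92 over wild type (horizontal axis) for the 317 counted miRNAs, with dotted lines at 2-fold. The 2 names past 2-fold the same way (red) lie on top of each other at upper right, and the 8 past 2-fold in opposite ways (blue) lie at upper left and lower right.

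The names that stood higher in both were miR-136-3p and miR-3071-5p, and they had the same reads in every library. Their hairpins lie on opposite strands of the same place in the Dlk1-Dio3 region, Mir136 at chr12:109595327-109595388 on the plus strand and Mir3071 at chr12:109595318-109595397 on the minus strand (GRCm38.p6), and overlap by 62 bases. The mature sequences, with seeds in capitals, share 19 bases as reverse complements.
miR-136-3p: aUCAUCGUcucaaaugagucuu
miR-3071-5p: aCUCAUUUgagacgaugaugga
The sources used here do not say whether counting used strand, so the reads cannot be assigned to either and count as 1 signal. It stood at 444.5 nRPM in 19-only, against 199.7 nRPM in ΔmiR-17,18, a ratio of 2.23 (95% interval 2.11 to 2.35). It stood at 583 nRPM in ΔmiR-92, against 233 nRPM in wild type, a ratio of 2.50 (2.36 to 2.66). Both libraries without miR-92 lay above both libraries with it. The range over all 8 genotype libraries was 199.7 to 583 nRPM, with a median of 355 nRPM, the lowest in ΔmiR-17,18 and the highest in ΔmiR-92. The library with the whole cluster deleted, which also lacks miR-92, stood at 213 nRPM, below wild type. The partner arm miR-136-5p stood at 449 nRPM in 19-only and 377 nRPM in ΔmiR-17,18, and at 190 nRPM in ΔmiR-92 and 174 nRPM in wild type, log2 ratios of 0.25 and 0.13.

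With a threshold of 1.5-fold, 2 more names stood higher in both and 2 lower in both. miR-153-3p, a neuronal miRNA, stood at 436.5 nRPM in 19-only, against 198 nRPM in ΔmiR-17,18, and at 651 nRPM in ΔmiR-92, against 348 nRPM in wild type. miR-122-5p, the main miRNA of hepatocytes, stood at 271 nRPM in 19-only, against 167 nRPM in ΔmiR-17,18, and at 262 nRPM in ΔmiR-92, against 69.4 nRPM in wild type. miR-142-3p, a miRNA of blood cells, was lower, at 134 nRPM in 19-only, against 253 nRPM in ΔmiR-17,18, and at 207 nRPM in ΔmiR-92, against 328 nRPM in wild type. miR-378b was the other lower one, with log2 ratios of -0.60 and -0.68. In the library with the whole cluster deleted, miR-153-3p stood at 191 nRPM and miR-142-3p at 114 nRPM, both below wild type. miR-122-5p stood there at 76.8 nRPM and miR-378b at 152 nRPM, both above wild type. At the same threshold 37 miRNAs stood on opposite sides, 22 higher and 15 lower in 19-only.

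The 8 miRNAs past 2-fold in opposite directions included 2 of the 5 highest ratios of the first comparison (miR-199a-5p and miR-199b-5p) and its lowest (miR-367-3p). miR-199a-5p, at 6520 nRPM in 19-only, against 926 nRPM in ΔmiR-17,18, stood at 627 nRPM in ΔmiR-92, against 2278 nRPM in wild type (ratio 0.275, 95% interval 0.266 to 0.285). miR-199b-5p followed it, at 62.6 nRPM in ΔmiR-92, against 154 nRPM in wild type. These paralogs thus had the same order in all 4 libraries, with 19-only highest and ΔmiR-92 lowest. miR-376a-3p of the Dlk1-Dio3 region stood at 1734 nRPM in 19-only, against 707.7 nRPM in ΔmiR-17,18, and at 586 nRPM in ΔmiR-92, against 1602 nRPM in wild type.

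miR-18b-5p, the X-linked paralog of miR-18a, differs from it at 2 bases outside the seed.
miR-18a-5p: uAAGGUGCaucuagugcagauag
miR-18b-5p: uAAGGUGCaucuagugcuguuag
miR-18b-5p stood at 4416 nRPM in 19-only, against 2018 nRPM in ΔmiR-17,18, a ratio of 2.19 (95% interval 2.15 to 2.22). It stood at 1097 nRPM in ΔmiR-92, against 6872 nRPM in wild type, a ratio of 0.160 (0.156 to 0.164), and ΔmiR-92 was the lowest of the 8 genotype libraries. Other miRNAs of the same X-linked cluster did not share these ratios. miR-20b-5p had log2 ratios of -0.24 and -0.09, miR-106a-5p of -0.49 and 1.20, miR-363-3p of 0.14 and 0.14, and the partner arm miR-18b-3p of -0.38 and 0.96.

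miR-293-5p, from the miR-290 cluster of pluripotent cells, stood at 402 nRPM in 19-only, against 130.0 nRPM in ΔmiR-17,18 (ratio 3.09, 95% interval 2.90 to 3.30). It stood at 137 nRPM in ΔmiR-92, against 608 nRPM in wild type (ratio 0.226, 0.210 to 0.242). Its partner arm miR-293-3p had log2 ratios of 0.21 and 1.37, so the arms lay on opposite sides of 2-fold in the second comparison. miR-9-5p, a miRNA of neural progenitors, stood at 2657 nRPM in 19-only, against 1313 nRPM in ΔmiR-17,18 (ratio 2.02, 1.98 to 2.07). It stood at 620.3 nRPM in ΔmiR-92, against 1807 nRPM in wild type (ratio 0.343), and its partner miR-9-3p lay the other way in both, with log2 ratios of -0.72 and 0.66.

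The 2 that stood lower in 19-only and higher in ΔmiR-92 were miR-367-3p, described above, and miR-7a-5p, a miRNA of neuroendocrine cells. miR-7a-5p stood at 2029 nRPM in 19-only, against 5015 nRPM in ΔmiR-17,18 (ratio 0.405, 95% interval 0.399 to 0.411). It stood at 3268 nRPM in ΔmiR-92, against 868 nRPM in wild type (ratio 3.77, 3.66 to 3.88). The miR-302 hairpins next to Mir367 differed among themselves. miR-302b-3p had log2 ratios of -0.36 and -0.07, miR-302d-3p of -0.66 and -0.42, and miR-302a-5p of 0.00 and -0.78. miR-302a-3p and miR-302c-3p lay on the same sides as miR-367-3p, with log2 ratios of -0.62 and 0.68 and of -0.63 and 2.2.

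**Figure D4:**
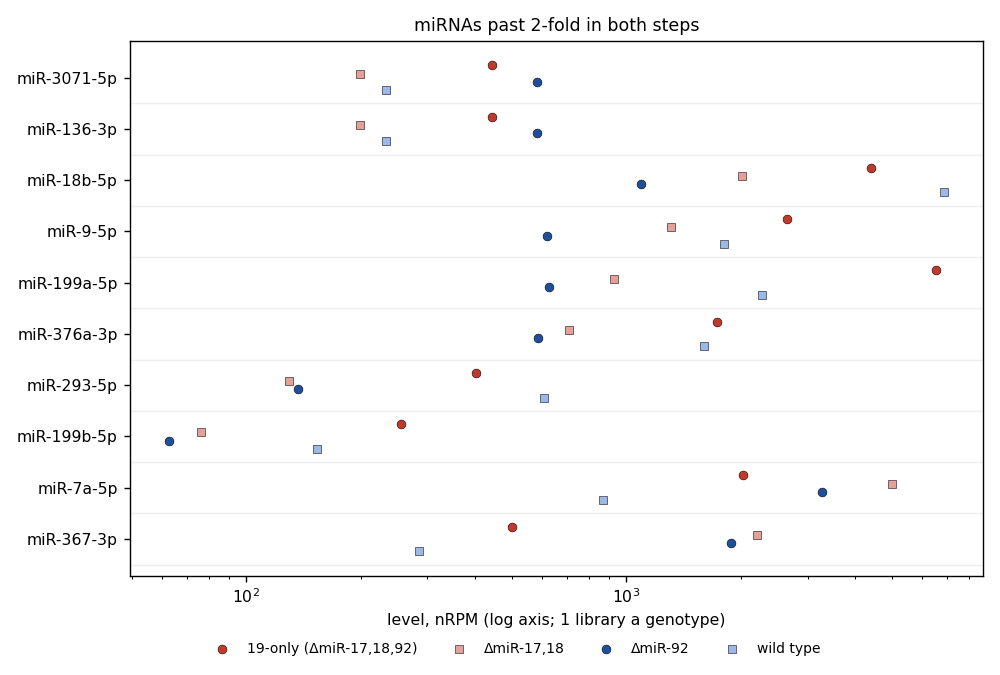
Levels in nRPM (log axis) of the 10 names past 2-fold in both comparisons, 1 point a library, for 19-only, ΔmiR-17,18, ΔmiR-92 and wild type. For miR-3071-5p and miR-136-3p both circles (miR-92 deleted) lie right of both squares, and for the 8 others ΔmiR-17,18 and ΔmiR-92 lie together on the same side of 19-only and wild type.

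In all 8 opposite miRNAs, ΔmiR-17,18 and ΔmiR-92 lay on the same side of both 19-only and wild type. The same held for 142 of the 317 counted miRNAs (44.8%). It can hold only where the ratios of the comparisons have opposite signs, for which the 8 were chosen. The 119 of the 317 with the same sign in both cannot meet it, so this contrast is partly set by that choice. With 1 library a genotype, which of the 4 libraries sets such an opposite pair of ratios cannot be told apart. The 19-only library was the highest of the 8 genotype libraries for 10 of the 27 miRNAs that stood higher in the first comparison, and ΔmiR-17,18 was the lowest for 14 of them. Over all 317, 19-only was the highest for 35 (11.0%) and ΔmiR-17,18 the lowest for 54 (17%). Of the 13 that stood lower, 19-only was the lowest for 8 and ΔmiR-17,18 the highest for 7, against 36 (11.4%) and 48 (15.1%) of all 317. The 27 and the 13 were chosen by these same 2 libraries, so their counts are partly set by that choice.

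The arms of 1 hairpin come from the same precursor, and 153 hairpins outside the cluster had an abundant arm at 100 nRPM or more and a partner at 10 nRPM or more. In 19-only over ΔmiR-17,18, the abundant arm was past 2-fold in 23 (15%). The partner was past 2-fold the same way in 2 of these, miR-126 and miR-181c, and had the same sign in 14. The miR-126 partner passed 2-fold only narrowly, as the scalings given above show. miR-181c-3p stood at 330.1 nRPM in 19-only, against 162 nRPM in ΔmiR-17,18. Over all 153 partners, 26 (17%) were past 2-fold. Across hairpins the ratios of the abundant arm and of the partner had a Pearson r of 0.08 (153 hairpins from the same libraries, some sharing reads). In ΔmiR-92 over wild type, 22 abundant arms (14.4%) were past 2-fold, with the partner past 2-fold the same way in 2 (miR-539 and miR-425) and the other way in 2 (miR-298 and miR-293), and r was -0.15.

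**Figure D5:**
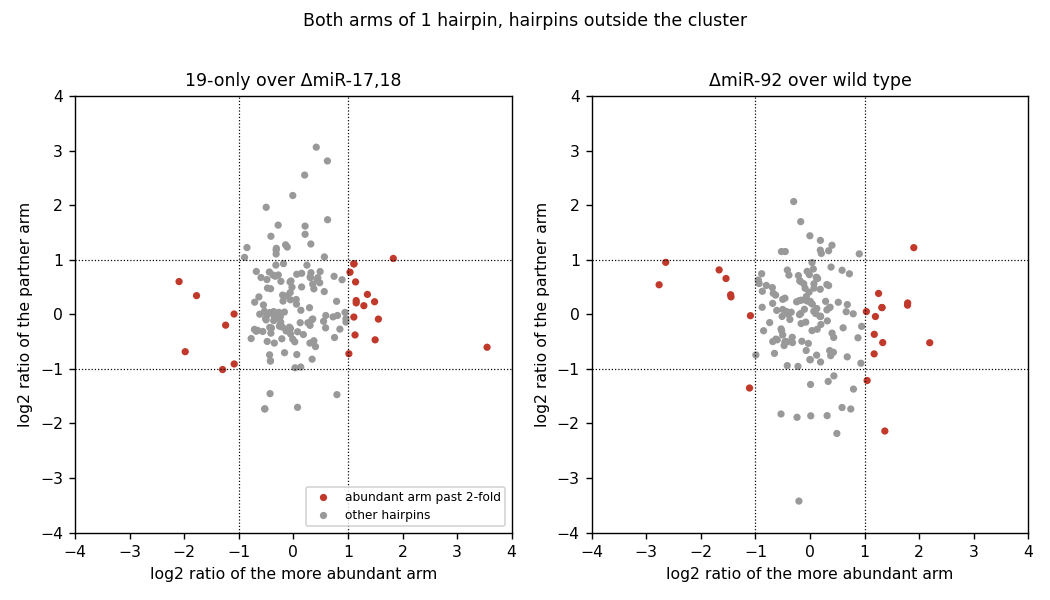
Log2 ratio of the partner arm against that of the more abundant arm for 153 hairpins outside the cluster, in 19-only over ΔmiR-17,18 (left) and ΔmiR-92 over wild type (right), with dotted lines at 2-fold. Of the hairpins whose abundant arm was past 2-fold (red, 23 left and 22 right), 2 in each panel had a partner past 2-fold the same way.

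The comparisons on the 2 backgrounds are the only repeat of this deletion among these 4 libraries, and limma tested the loss of miR-92a-1 over both, with the background as a block and 1 residual degree of freedom. It called 2 of 556 miRNAs averaging 10 nRPM or more (0.360%) at a Benjamini-Hochberg adjusted p under 0.05. miR-92a-1-5p fell by 9.15 ± 0.70 on the log2 scale (SE, adjusted p = 0.000448, limma), and the higher row of miR-92a-3p fell by 7.31 ± 0.56 (SE, adjusted p = 0.000448, limma), each lower in 2 of 2 backgrounds. Both calls were largely set in advance, since miR-92a-1-5p comes from the deleted locus and the higher row was assigned by these same values. They say nothing of miRNAs other than the deleted one. Of 543 miRNAs outside the cluster limma called 0, with 5 at an unadjusted p under 0.05. miR-136-3p had a mean log2 ratio of 1.23 ± 0.49 (SE, adjusted p = 0.998, limma).

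edgeR's quasi-likelihood test, run on recovered whole reads, called 3 miRNAs (0.540%), with miR-465a-5p as the 1 outside the cluster (adjusted p = 6.69e-05, edgeR). It had 837 reads in 19-only, against 0 in ΔmiR-17,18, and 33 reads in ΔmiR-92, against 0 in wild type, which are 58.0 and 4.72 nRPM in the libraries without miR-92. The library with the whole cluster deleted held 0.630 nRPM. In limma its log2 ratio was 4.20 ± 0.81 (SE, adjusted p = 0.177), a fitted value that depends on the pseudocount. limma also called miR-465a-5p with a pseudocount of 0.1 nRPM (adjusted p = 0.00436), with plain read totals (7.12e-05), with totals outside the cluster (0.000194) and with TMM factors (0.0204). With 10 nRPM as the pseudocount, no minimum or no background block it did not, and 2 further alternatives left miR-465a-5p under their minimum. DESeq2's Wald test called the same 2 miR-92a arms (0.360%) and 0 outside the cluster, with 10 at an unadjusted p under 0.05 there, against 7 for edgeR. The error term is the difference between backgrounds, from 4 libraries of different genotypes. The tests also draw each miRNA's variance towards values shared across miRNAs. An SE or p-value is therefore not the spread of that miRNA alone between the backgrounds. A p that misses the threshold does not show that a miRNA stayed level.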

How the data were processed

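RNA was extracted with Trizol, per the labels' protocols. The submitters' processing notes name the build mm9, featureCounts with Subread 1.4.2, SAMtools 0.1.19 and STAR 2.2.0. The sources used here do not say how multi-mapped reads or strand were handled. In the deposited table each mature miRNA has 1 normalised signal value per library. By the steps of these values, reads had been divided by 1 factor per library: 100% of them were whole multiples of 1 read within 0.001 reads, and those reads were recovered. The table's 1046 rows held 977 accessions, 57 of them repeated. Rows of an accession that differed by 10% or less were merged to the higher, and 7 accessions kept separate rows, which left 985.

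Deposited values were multiplied by 0.116 to give nRPM. Before log2, 1 nRPM was added as a pseudocount, so ratios of low miRNAs are drawn towards 0. miRNAs outside the cluster averaging 100 nRPM or more over the 4 libraries were counted when past 2-fold. limma (3.58.1, trend, R 4.3.3) was the test and edgeR (4.0.16) and DESeq2 (1.42.0) on recovered reads were alternatives, since the table holds normalised values. The tests were also run on simulated counts in which the loss had the same effect on both backgrounds. That setting differs from these data, where the log2 ratios of the 2 backgrounds had a Pearson r of -0.39. Python 3.11.15 with scipy 1.17.1 gave the rest.

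The rule for named miRNAs took the arms of the cluster, its seed family, all names past 2-fold the same way in both comparisons, the 5 highest and 5 lowest ratios of 19-only over ΔmiR-17,18, 5 opposite ones, any limma call and the 2 most abundant of each of 15 lists (148 of 149 names matched). Other names were chosen after their values were seen. The members and lists were chosen with earlier results of these data known. Sequences and positions are RefSeq's (GRCm38.p6), a build other than the authors', and 251 of the 317 counted miRNAs matched a mature sequence by name.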

Additional observations from a re-analysis of the deposited data

Results flagged for a closer look

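Outside the cluster, 8 miRNAs stood 2-fold or more on opposite sides in the 2 comparisons, 19-only over ΔmiR-17,18 and ΔmiR-92 over wild type, and this difference was not tested, since each genotype had 1 library. The log2 ratio of the first comparison minus that of the second was 4.67 for miR-199a-5p, 3.78 for miR-18b-5p, 3.76 for miR-293-5p and 3.02 for miR-199b-5p. It was 2.74 for miR-376a-3p and 2.56 for miR-9-5p. It was -3.22 for miR-7a-5p and -4.87 for miR-367-3p.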

How the results depend on the processing

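The counts of miRNAs past 2-fold outside the cluster in 19-only over ΔmiR-17,18 (40, of them 27 higher and 13 lower), those in ΔmiR-92 over wild type (47, of them 25 and 22) and the number the same way in both (2) moved most with the minimum, the threshold and the scaling. With plain read totals they were 62 (56 higher, 6 lower), 42 higher in ΔmiR-92, and 4. With a minimum of 10 nRPM they were 75 (50 and 25) and 94 (50 and 44), and with none 180 (108 and 72), 237 (129 and 108) and 17. At 1.5-fold they were 100 (64 and 36), 119 (62 and 57) and 6. Counting miRNAs with identical reads once, an alternative chosen after seeing the data, left 1 the same way. Names with nearly equal levels stayed separate there. Opposite miRNAs outnumbered those the same way in all 13 alternatives, with between 7 and 37, and the Pearson r stayed between -0.41 and -0.16. limma called 2 miRNAs, 4 with read totals outside the cluster and 0 with no minimum, where 985 were tested. Of the 8 opposite names, miR-7a-5p and miR-9-5p left that set in 1 of 13 alternatives each. Of 684 values of the named miRNAs under 6 scalings and pseudocounts, 12 crossed 2-fold and 0 changed sign past it. The cause of these shifts was not tested. The labels give no replicate numbers to pair by. The background was the block of the limma test, which called 2 without that block too. Counting intervals do not cover the spread between embryos, which no replicate measures here.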
